A study of Mus musculus with 22 samples.

Results

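Chromatin accessibility in the hippocampus was compared between mice killed 24 h and 6 h after an injection of lipopolysaccharide (LPS), the outer membrane component of bacteria used to provoke inflammation. All 3 deposited libraries of each time, replicates 1, 3 and 4, were taken, which makes 6 of the 22 libraries of the series. Every animal was an adult male C57BL/6J mouse in a model of Gulf War Illness. All had drunk corticosterone (CORT) for 7 days, had received diisopropyl fluorophosphate (DFP), an organophosphate that blocks acetylcholinesterase, on day 8, and had been given CORT again at intervals over 5 weeks before LPS. The controls of the series carried the same CORT and DFP exposure and got saline in place of LPS, so no unexposed animal enters here. Saline animals were collected at 6 h only, with 2 hippocampal libraries (replicates 2 and 3), so the 24 h libraries have no saline group of their own time. The 6 libraries come from 6 animals, 1 library each, and the same animals also gave frontal cortex. The labels used here give no hour of day for the collections, so time since LPS and hour of day cannot be told apart.

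LPS is bound with the help of the co-receptor CD14 and of MD-2, which the gene Ly96 encodes, and is sensed by Toll-like receptor 4, which drives NF-kB and interferon signalling. In the brain these receptors are found chiefly on microglia, the resident macrophages. Microglia in their resting state carry surface proteins such as TMEM119, P2RY12 and the sialic acid binding lectin Siglec-H, and the transcription factor PU.1, encoded by Spi1, keeps their identity. ATAC-seq inserts adapters into open DNA with a transposase, so that active promoters and enhancers appear as peaks.

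A window that held a peak at only 1 of the times lay on each promoter below, except that of Siglech, which had the lowest p of the gene comparison. Those printed are a part of the 37 promoters at 24 h windows and the 19 at 6 h windows. They do not stand for the rest in gene function or in matches, and the shares with each match over all of them are given further below. The printed sequences are RefSeq sequences of GRCm38.p6 from 250 bases before to 50 after a start, 5′ to 3′ on the strand of the gene. Capitals mark matches, on either strand, to AP-1 (TGANTCA), NF-kB (GGG, any 2 bases, TTTCC), IRF (GAAA, any 2 bases, GAAA), PU.1 (GAGGAAGT), E-box (CACGTG) or CRE (TGACGTCA). None of the matches printed overlaps another. Ccl3 encodes an inflammatory chemokine and had a peak only at 6 h (chr11:83649329-83649628, minus strand), with no match in capitals.
Ccl3: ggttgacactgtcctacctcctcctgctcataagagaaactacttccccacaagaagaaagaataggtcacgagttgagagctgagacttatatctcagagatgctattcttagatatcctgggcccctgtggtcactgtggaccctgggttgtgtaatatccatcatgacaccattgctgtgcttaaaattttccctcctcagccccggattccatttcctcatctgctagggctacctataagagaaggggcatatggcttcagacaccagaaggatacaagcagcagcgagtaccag
Tmem176a, which encodes a membrane protein of antigen-presenting cells, had its window only at 6 h (chr6:48841233-48841532, plus strand). Peaks of all 3 libraries at 24 h touched this window, and the NF-kB match lies on the promoter but outside the window. A second start of the gene at this window (chr6:48841406-48841705, plus strand) holds no match and is not printed.
Tmem176a: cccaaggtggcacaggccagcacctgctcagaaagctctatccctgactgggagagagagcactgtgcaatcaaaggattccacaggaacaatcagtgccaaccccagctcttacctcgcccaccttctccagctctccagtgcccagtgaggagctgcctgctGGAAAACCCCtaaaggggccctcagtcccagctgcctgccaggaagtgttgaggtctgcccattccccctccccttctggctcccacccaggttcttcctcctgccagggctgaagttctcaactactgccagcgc
Fgf21 encodes a stress-responsive metabolic hormone and had its window only at 6 h (chr7:45615441-45615740, minus strand), with an NF-kB and an E-box match.
Fgf21: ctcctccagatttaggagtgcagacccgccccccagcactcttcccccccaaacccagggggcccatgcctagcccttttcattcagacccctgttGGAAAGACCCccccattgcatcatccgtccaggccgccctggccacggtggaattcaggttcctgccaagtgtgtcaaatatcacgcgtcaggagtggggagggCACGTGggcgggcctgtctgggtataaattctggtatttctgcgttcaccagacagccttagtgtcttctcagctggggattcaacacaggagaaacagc
Ccl9, another chemokine gene, had its window only at 24 h (chr11:83578587-83578886, minus strand), with an AP-1 and an NF-kB match.
Ccl9: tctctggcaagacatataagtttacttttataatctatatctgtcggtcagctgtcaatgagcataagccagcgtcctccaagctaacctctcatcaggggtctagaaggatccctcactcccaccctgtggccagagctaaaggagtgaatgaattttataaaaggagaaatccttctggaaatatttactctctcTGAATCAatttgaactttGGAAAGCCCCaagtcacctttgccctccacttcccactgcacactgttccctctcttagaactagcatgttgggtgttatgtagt
Ifit1bl1, a gene of the interferon-induced Ifit family, had its window only at 24 h (chr19:34601919-34602218, minus strand), with a PU.1 and an IRF match.
Ifit1bl1: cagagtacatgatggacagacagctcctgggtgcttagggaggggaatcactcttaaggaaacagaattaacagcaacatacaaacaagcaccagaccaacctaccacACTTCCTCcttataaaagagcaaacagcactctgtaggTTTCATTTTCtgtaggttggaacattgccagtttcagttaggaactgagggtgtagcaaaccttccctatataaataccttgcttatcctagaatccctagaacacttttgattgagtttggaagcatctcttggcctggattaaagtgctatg
Rasal3, a Ras regulator of blood-derived cells, had its window only at 24 h (chr17:32403533-32403832, minus strand), with an E-box match.
Rasal3: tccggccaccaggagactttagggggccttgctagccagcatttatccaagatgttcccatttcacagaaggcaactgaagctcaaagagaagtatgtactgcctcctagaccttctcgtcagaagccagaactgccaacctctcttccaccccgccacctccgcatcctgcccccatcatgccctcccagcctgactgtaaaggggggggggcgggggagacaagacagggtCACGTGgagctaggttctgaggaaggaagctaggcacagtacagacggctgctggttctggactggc
Siglech kept a promoter peak in all 6 libraries (chr7:55767934-55768233, plus strand), and its promoter holds an E-box match.
Siglech: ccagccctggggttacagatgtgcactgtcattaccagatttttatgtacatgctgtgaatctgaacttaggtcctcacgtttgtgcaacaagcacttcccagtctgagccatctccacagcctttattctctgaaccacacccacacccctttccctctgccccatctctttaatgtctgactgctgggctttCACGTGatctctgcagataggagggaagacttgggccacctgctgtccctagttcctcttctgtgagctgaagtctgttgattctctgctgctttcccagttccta

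The deposited peak lists hold no read counts, so depth is unknown here. The 24 h libraries held 278808, 253430 and 244412 distinct peak intervals and the 6 h libraries 258609, 263249 and 228266, in the order of replicates 1, 3 and 4. The ranges overlapped, and the 6 h library of replicate 4 had the fewest peaks and the shortest open sequence, 84.4 Mb. Open sequence summed to 103 ± 4.57 Mb at 24 h and 94.1 ± 8.57 Mb at 6 h (mean ± SD, n = 3 each; two-sided exact permutation p = 0.2, smallest possible 0.1). Median peak width was 317, 326 and 331 bp at 24 h and 310, 312 and 302 bp at 6 h, and these groups did not overlap (exact permutation p = 0.1, the smallest possible; adjusted over 5 library values 0.5). Peak number (p = 0.6), the share of peaks within 1 kb of a gene end (p = 0.4) and the share of strong peaks (p = 1) had higher exact permutation values. All 9 hippocampal marker genes examined, among them Prox1 of the dentate gyrus and Fibcd1 of CA1, had open sequence in every library. The same held for all 4 microglial, astrocytic, oligodendrocytic and endothelial markers each. It also held for all 4 striatal and 3 of 4 choroid plexus markers, so the presence of open sequence at markers does not set the tissue apart. S100a9, a neutrophil gene, had none in any library, and S100a8 had 150 bp in 1 library at 6 h, while the other leukocyte markers (Ptprc, Csf3r, Cd3e) were open in all 6.

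Consensus windows reaching 250 bp either side of a summit numbered 380191, of which 296253 held a peak in at least 2 libraries. A peak was counted where it covered at least 50% of the shorter of window and peak. All 6 libraries shared 166790 windows. A peak in all 3 libraries at 24 h and in none at 6 h was found in 2939 windows (0.992% of those tested), and the converse in 1053 (0.355%). The smallest p that 3 against 3 libraries can give for 1 window is 0.1, so no window can pass a test on its own. The excess of 24 h windows was not seen without the 6 h library of replicate 4, where the counts were 4703 at 24 h and 5309 at 6 h. That setting asks for 2 libraries at 6 h and 3 at 24 h, so the 2 counts are not on equal terms. Without replicate 1 or 3 at 6 h, under the same uneven rule, they were 5292 against 2586 and 6938 against 2627. With equal numbers of peaks per library they were 2383 and 1233. Pairs of libraries overlapped about as much across times as within them, with a median Jaccard index (shared open sequence over all open sequence) of 0.656 within 24 h, 0.604 within 6 h and 0.634 between the times.

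**Figure D1:**
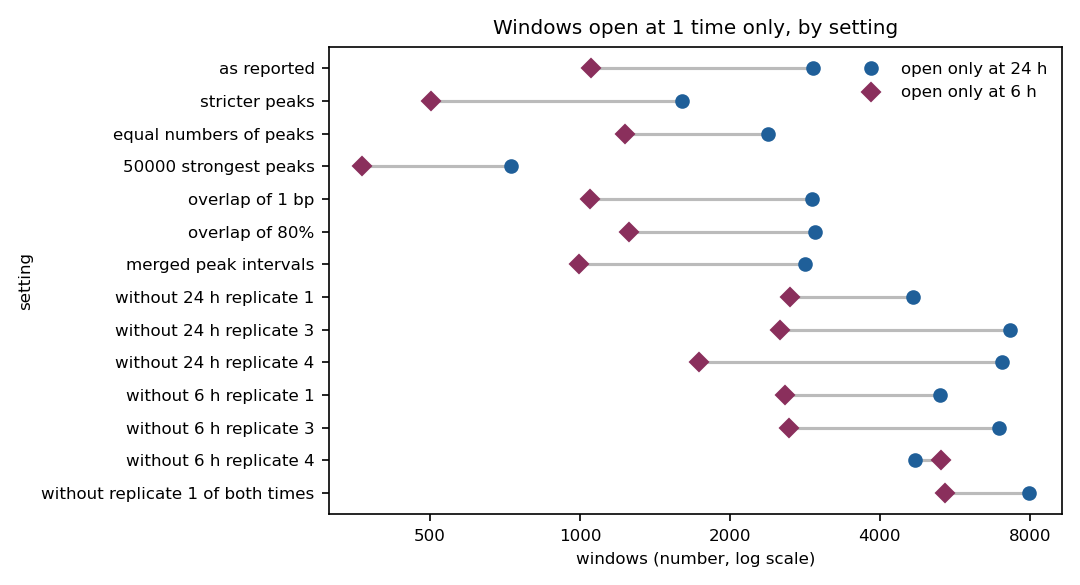
Number of windows (log axis) with a peak in all libraries of 24 h and none of 6 h (circles) and the converse (diamonds), under each setting tried. Circles lie to the right in all settings shown except the one without the 6 h library of replicate 4, where 4703 stand against 5309.

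Windows found at only 1 time were weak peaks. By the authors' peak values, their median fold over background was 2.56 (24 h only) and 2.60 (6 h only), against 3.87 over all tested windows. A -log10 q of 5 or more was reached by 18.0% and 15.4% of their peaks, against 66.7% over all tested windows. They lay less often near a gene end: 160 of the 2939 (5.44%) and 73 of the 1053 (6.93%) were within 1 kb of one, against 9.83% of tested windows. No peak of the other time touched 2716 of the 2939 windows and 943 of the 1053.

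The strongest of these windows lay at the edge of regions that were open at both times. Ranked by the weakest of their 3 peaks, the leading 24 h windows lay nearest to Clpx (a mitochondrial protease subunit), Tpst2, Txndc11, Creg1, Pard3, Magi3, Higd1a and Kansl1. At 6 h they lay nearest to Kdm1b (a histone demethylase), Nsun6, Dbi, Nectin1, Tmem176a, Tmpo, Nedd4l and Smim17. A peak of all 3 libraries of the other time touched each of these 16 windows but covered under 50% of the shorter. At Clpx the authors' fold was 10.3, 11.6 and 9.58 at 24 h, and at Kdm1b it was 9.40, 8.64 and 9.19 at 6 h. At Tmem176a (chr6:48841458-48841958) it was 7.06, 5.62 and 5.91 at 6 h. The Tmem176a window was counted in 0 of 3 libraries at 12 h, 0 of 2 with saline and 0 of 6 in frontal cortex at 6 and 24 h.

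A further ranking, added after the values were seen, kept only windows that no peak of the other time touched. At 24 h it led with windows nearest to Ccser1, Gpr63, Siglech, Tenm3, Depdc7, Trpa1, Camk2d and Cxxc4. The Ccser1 window (chr6:61118996-61119496), 60464 bp from the gene, had a fold of 9.85, 8.22 and 8.40 at 24 h and was found in no 12 h or saline library of hippocampus. At 6 h the ranking led with windows nearest to Cnr1 (the cannabinoid CB1 receptor), Lekr1, Rbfox1, Hmgxb4, Ankrd7, Hmgcll1, Ampd3 and Robo2. The Cnr1 window (chr4:33861960-33862460), 60711 bp from the gene, had a fold of 4.05, 4.20 and 4.11 at 6 h. It was also found in 2 of 3 libraries at 12 h and 2 of 2 with saline, and in no cortex library at 6 or 24 h. Camk2d encodes a calcium/calmodulin-dependent kinase, and its window (chr3:126682891-126683391) was listed as higher at 24 h than with saline in the authors' deposited table. Few windows were: of the 2939 found only at 24 h, 7 lay at a region listed there as higher and 0 at one listed as lower. Over all tested windows these numbers were 91 and 73, and for windows found only at 6 h they were 0 and 1.

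Siglech, the microglial lectin gene, gave the clearest contrast. A window 2370 bp before the gene (chr7:55765284-55765784) had a peak at 24 h with an authors' fold of 5.98, 4.11 and 5.60 in replicates 1, 3 and 4, and no peak of any 6 h library touched it. All 3 libraries at 12 h (fold 2.92, 3.05 and 3.43) and both saline libraries (4.47 and 3.06) also had the peak. The frontal cortex of the same animals followed the same pattern, with a fold of 5.75, 4.11 and 4.98 at 24 h and no peak counted at 6 h. Of the 296253 tested windows, this was the only 1 (0.000338%) counted in none of the 6 LPS 6 h libraries of both tissues and in all 16 others. The converse, a peak in all 6 LPS 6 h libraries and in none of the others, held for 2 windows. This pattern was chosen after the Siglech values were seen. The authors' deposited table listed no region at this window as higher or lower than saline at 6, 12 or 24 h.

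To summarise peaks by gene, the open length of a gene was taken as the peak-covered sequence in its body and 5 kb either side, and log2(length + 250 bp) was compared with limma after centring each library. Of 16897 genes, 0 passed at a Benjamini-Hochberg adjusted p of 0.05 (0%), and the lowest limma adjusted p was 0.632. At an unadjusted limma p under 0.05, 692 genes (4.10%) had a longer open length at 24 h and 392 (2.32%) a shorter one. The libraries of both times did not overlap for 1053 genes (6.23%) longer at 24 h and 838 (4.96%) longer at 6 h. The genes named from here on are therefore ordered by unadjusted p, and none is called changed.

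Siglech had the lowest p of all genes. Its open length was 867, 1176 and 1179 bp at 24 h and 341, 349 and 250 bp at 6 h, with no overlap. Means were 1074 ± 179 bp and 313 ± 55.0 bp (SD, n = 3 each), a log2 difference of 1.15 (SE 0.18, limma unadjusted p = 4.62e-05, adjusted p = 0.632). The 12 h libraries (716, 738 and 713 bp) and saline libraries (939 and 756 bp) lay above all 6 h values. In frontal cortex it was 969, 1319 and 1228 bp at 24 h and 311, 246 and 328 bp at 6 h. The same fit in cortex gave a log2 difference of 1.26 (SE 0.17, limma unadjusted p = 3.32e-05, adjusted p = 0.145, the lowest in cortex and shared by 26 genes). Siglech was the only gene of 16897 (0.00592%) whose centred open length in all 6 LPS 6 h libraries of both tissues lay below all 16 others, and no gene lay above. The 5 kb reach takes in the Siglech window described above, so this count is not separate from that of the windows. It too was made after the Siglech values were seen. In bulk tissue, fewer microglia and less open chromatin per microglial cell cannot be told apart. With the 20 kb reach in place of 5 kb, which takes in more of the neighbourhood, the hippocampal difference was 0.31, and with a pseudocount of 1000 bp it was 0.60.

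**Figure D2:**
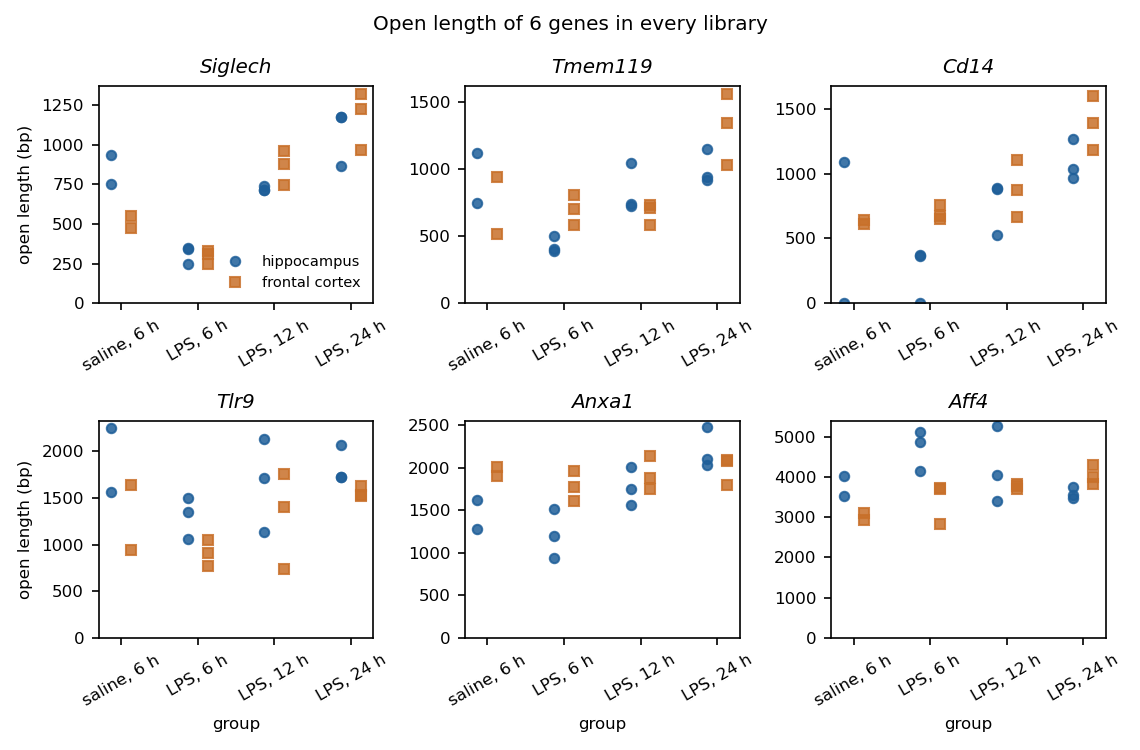
Open length (bp, gene body and 5 kb either side) of 6 genes in each of the 22 libraries, by group. Circles are hippocampus and squares frontal cortex. For Siglech all LPS 6 h libraries of both tissues (246 to 349 bp) lie below every other library.

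Behind Siglech, the genes with the lowest p and more open sequence at 24 h were Tdrd6, a germ cell gene, Anxa1, Dpy19l2 and Vwc2l, the last with a sign that turned (-0.027) when only 1 kb around gene ends was counted. Anxa1 encodes annexin A1, an anti-inflammatory protein that glucocorticoids induce. Its open length was 2473, 2099 and 2030 bp at 24 h and 1199, 1509 and 940 bp at 6 h, a log2 difference of 0.68 (SE 0.12, limma adjusted p = 0.632). In cortex the Anxa1 difference was 0.02 (SE 0.10). Whether hippocampus and cortex differ at these genes was not tested. Tdrd6 had 912, 1294 and 1055 bp at 24 h and 307, 479 and 261 bp at 6 h. The lowest p with less open sequence at 24 h belonged to Aff4, a scaffold of the super elongation complex, Atp5c1 (an ATP synthase subunit), Wnt2b, Txnl1 and Tmem86b. Aff4 had 3479, 3751 and 3543 bp at 24 h and 5130, 4865 and 4154 bp at 6 h, a log2 difference of -0.44 (SE 0.08). In cortex the Aff4 difference was 0.12 (SE 0.10), and those of Atp5c1, Wnt2b, Txnl1 and Tmem86b were positive too, from 0.06 to 0.45. None of these cortex values passed adjustment.

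Microglial genes had longer open lengths at 24 h more often than shorter ones. Of 38 tested, 28 had a positive difference, against 52.7% of all genes, and their median log2 difference was 0.09 against 0.01 over all genes. At an unadjusted limma p under 0.05, 5 were longer at 24 h (Siglech, Tmem119, Spi1, Selplg and P2ry13) and 0 shorter, against 4.10% and 2.32% of all genes, and none passed adjustment. Selplg turned sign with stricter peaks (-0.049). By windows, 4 of 535 at microglial genes were found only at 24 h (0.748%, against 0.992% over all windows) and 1 only at 6 h (0.187%, against 0.355%), so neither share lay above that of all windows. Tmem119, a marker of resident microglia, had 940, 1147 and 919 bp at 24 h and 497, 392 and 402 bp at 6 h, with no overlap (log2 difference 0.80, SE 0.17). With stricter peaks the Tmem119 difference was 0.26. Spi1 had 5341, 5035 and 4801 bp at 24 h and 4008, 4350 and 3891 bp at 6 h, also without overlap (0.22, SE 0.08). P2ry12 and Cx3cr1, the other classical resting markers, had differences of 0.12 (SE 0.08) and 0.17 (SE 0.08), with unadjusted p of 0.165 and 0.0723. The list took 0.182 to 0.185% of the open length of all genes at 24 h and 0.170 to 0.179% at 6 h, and 0.181 to 0.184% at 12 h. Saline libraries took 0.177 to 0.184%, which overlaps the 6 h range.

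Of 20 blood leukocyte and erythroid genes tested, 13 had a positive difference, against 52.7% of all genes, with a median of 0.07. At an unadjusted limma p under 0.05, 1 was longer at 24 h and 0 shorter, against 4.10% and 2.32% of all genes. The times did not overlap for 3 genes longer at 24 h and 1 longer at 6 h, against 6.23% and 4.96% of all genes. The gene with an unadjusted limma p under 0.05 was Ptprc, which encodes the leukocyte antigen CD45 that microglia carry too. It had 5468, 4581 and 4381 bp at 24 h and 4168, 3921 and 3556 bp at 6 h (log2 difference 0.21, SE 0.09), and without the 24 h library of replicate 1 the difference was 0.13. The list took 0.0491 to 0.0504% of the open length of all genes at 24 h and 0.0473 to 0.0495% at 6 h, which overlap, and whether blood cells bear on the microglial values was not tested.

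Genes of the LPS-sensing list also had positive differences in the main. Not all of its genes sense LPS itself. Of 23 tested, 16 had a positive difference (median 0.06), against 52.7% of all genes. At an unadjusted limma p under 0.05, 5 were longer at 24 h (Cd14, Ly96, Ticam1, Gsdmd and Tlr9) and 0 shorter, against 4.10% and 2.32% of all genes, with none past adjustment. Ticam1 turned sign with the 20 kb reach (-0.019). Cd14, the LPS co-receptor, had 1264, 1034 and 968 bp at 24 h. At 6 h it had 372 and 364 bp in replicates 1 and 3 and was listed at 0 in replicate 4. The log2 difference was 1.47 (SE 0.29), and it depends on the pseudocount: 2.38 with 50 bp and 0.70 with 1000 bp, and 0.25 with the 20 kb reach. One saline library had 1093 bp at Cd14 and the other 0. Ly96, which encodes MD-2, had 1590, 1716 and 1966 bp at 24 h and 1236, 1275 and 1105 bp at 6 h (0.39, SE 0.11), and with stricter peaks the difference was 0.047. Tlr9, the receptor for bacterial DNA, had 1723, 1730 and 2071 bp at 24 h and 1348, 1065 and 1504 bp at 6 h (0.36, SE 0.15), and with stricter peaks the sign turned (-0.05). Tlr4 itself had a difference of -0.001 (SE 0.15). By windows, 5 of 231 at genes of this list were found only at 24 h (2.16%, against 0.992% over all windows) and 0 only at 6 h (against 0.355%). These were 2 nearest to Tlr4 and 1 each to Ly96, Map3k7 and Tlr9. Together the genes of this list took 0.0745 to 0.0773% of the open length of all genes at 24 h and 0.0711 to 0.0748% at 6 h, which overlap. Saline libraries took 0.0722 to 0.0768%.

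**Figure D3:**
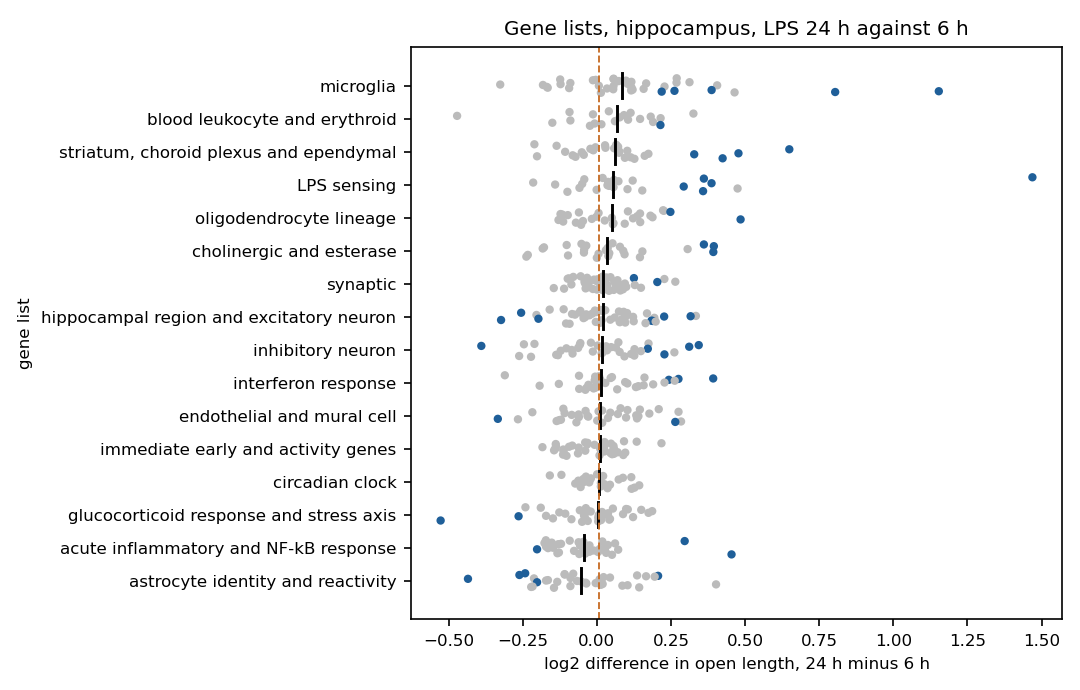
Log2 difference in open length (24 h minus 6 h) of each tested gene of the 16 lists, ordered by list median. Blue points have an unadjusted limma p under 0.05, black bars are list medians and the dashed line is the median over all genes; the microglia list has the highest median, 0.09, and the astrocyte list the lowest, -0.05.

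Acute inflammatory genes had negative differences in the main. Of 38 tested, 12 had a positive difference, against 52.7% of all genes, with a median of -0.04. Ccl2 and Vcam1 were longer at 24 h and Osmr shorter at an unadjusted limma p under 0.05, against 4.10% and 2.32% of all genes. Ccl2, a monocyte-attracting chemokine gene, had 1727, 1695 and 1626 bp at 24 h and 1230, 1293 and 1211 bp at 6 h (log2 difference 0.30, SE 0.10, adjusted p = 0.718), and with the 20 kb reach the difference was 0.11. Early response genes had small negative values with wide errors: -0.16 (SE 0.11) for Nfkbia, which encodes an NF-kB inhibitor, -0.16 (SE 0.12) for Il1b and -0.13 (SE 0.14) for Tnf. By windows, 5 of 448 at these genes were found only at 24 h (1.12%, against 0.992% over all windows) and 3 only at 6 h (0.670%, against 0.355%). The 24 h windows lay nearest to Cebpb, Il1a, Il1r1, Nfkb1 and Nfkbiz, of which Il1a is a cytokine gene. The 6 h windows lay nearest to Ccl3, Ccl4 and Tnf, all cytokine genes, and Ccl3 and Ccl4 overlap on chr11. The Ccl3 window lies on its promoter (chr11:83649271-83649771), with a fold of 3.34, 3.33 and 2.24 at 6 h and no touching peak at 24 h. It was found in 2 of 3 libraries at 12 h and both saline libraries, and in cortex in 3 of 3 at 6 h and 1 of 3 at 24 h.

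Interferon genes gave 3 longer open lengths at 24 h (Ifih1, Ifnar1 and Ifit2) and 0 shorter at an unadjusted limma p under 0.05 among 33 tested, against 4.10% and 2.32% of all genes, with a median of 0.01. Ifih1, the RNA sensor MDA5, had 4144, 4263 and 4670 bp at 24 h and 3028, 3674 and 2622 bp at 6 h (0.39, SE 0.10). Both saline libraries of Ifih1, at 4643 and 4006 bp, lay above all 6 h values. In cortex its difference was 0.03 (SE 0.08). Ifit2 had 2072, 2011 and 2164 bp at 24 h and 1797, 1489 and 1470 bp at 6 h (0.28), and its sign turned (-0.11) when only 1 kb around gene ends was counted.

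Windows found only at 24 h lay on 37 promoters of the RefSeq table (0.218% of the 16941 at a tested window) and those found only at 6 h on 19 (0.112%). Some of these are near-identical starts of 1 gene or starts of neighbours, so that the 37 stand at 34 places and the 19 at 16. The NF-kB letters stood in 4 of the 19 (Nsun6, Tmem176a, Tmem176b and Fgf21) and in 1 of the 37 (Ccl9), against 1.63% of all 32851 promoters and 1.58% of the 16941 at a tested window. Tmem176a and Tmem176b start head to head and share 1 match, so these are 3 places. The windows at Nsun6, Tmem176a and Tmem176b are edges that peaks of all 3 libraries at 24 h touched, and their matches lie outside the window. Of the 4, Fgf21 alone has its match inside a window that no 24 h peak touched. The IRF letters stood in 4 of the 37 (3.44% of all promoters, 2.85% of those at a tested window) and the PU.1 letters in 3 (3.20% and 2.76%), and both in 0 of the 19. The 4 with IRF letters were Ifit1bl1, Gm40053, Gm38762 and 9330158H04Rik. At 9330158H04Rik the match lies outside the window, and a peak of 1 library at 6 h touched the Gm40053 window. A second Ifit1bl1 start holds an IRF and a PU.1 match too, and no window found at only 1 time lay on it. AP-1 letters stood in 3 of the 37 and 1 of the 19 (7.81% of all, 5.74% at a tested window). E-box letters stood in 3 (2 places) and 1 (7.15% and 9.46%), and CRE letters in none (1.79% and 2.89%). A match is a run of letters and not a measured binding site. At the Ifit1bl1 promoter the fold was 3.60, 2.69 and 2.80 at 24 h, and at Rasal3 it was 3.44, 3.0 and 3.54. Fgf21 had 3.34, 2.86 and 2.79 at 6 h and Ccl9 had 2.81, 3.16 and 2.36 at 24 h. Of these, Rasal3 was also found in cortex in 3 of 3 libraries at 24 h and 0 of 3 at 6 h.

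Astrocyte genes had the lowest list median, -0.05, with 14 of 35 positive, against 52.7% of all genes. At an unadjusted limma p under 0.05, 1 was longer at 24 h and 4 were shorter, against 4.10% and 2.32%. One of the 4 was Gjb6, the gap junction protein connexin 30, with 1157, 891 and 773 bp at 24 h and 1392, 1037 and 1394 bp at 6 h, which overlap. Acsbg1, another of the 4, turned to a positive difference with stricter peaks (0.23). Gfap had a difference of -0.09 (SE 0.13). Of 784 windows at astrocyte genes, 5 were found only at 24 h (0.638%, against 0.992% over all windows) and 1 only at 6 h (0.128%, against 0.355%). Neither share lay above that of all windows. Genes of glucocorticoid response and the stress axis, not all of them targets of the receptor, had a median of 0.0043 over 35 genes. At the same p, 0 were longer and 2 shorter at 24 h, against 4.10% and 2.32% of all genes. The 2 were Mt1, the metallothionein gene, with 1052, 984 and 964 bp against 1243, 1194 and 1092 bp at 6 h, and Sult1a1. Fkbp5 and Nr3c1, the glucocorticoid receptor gene, had differences of 0.04 (SE 0.11) and 0.0045 (SE 0.08). Windows at the genes of this list gave 11 of 662 found only at 24 h (1.66%, against 0.992% over all windows) and 3 only at 6 h (0.453%, against 0.355%).

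Cholinergic genes are of interest because DFP blocks acetylcholinesterase. Of 26 tested, 3 were longer at 24 h (Chrm2, Chrnb4 and Bche) and 0 shorter at an unadjusted limma p under 0.05, against 4.10% and 2.32% of all genes, and the median was 0.03. Bche, which encodes butyrylcholinesterase, had 1611, 1473 and 1359 bp at 24 h and 1244, 1207 and 708 bp at 6 h (0.36, SE 0.15), and without the 6 h library of replicate 4 the difference was 0.20. Ache, the DFP target itself, had a difference of 0.05 (SE 0.09). Windows gave 9 of 452 found only at 24 h (1.99%, against 0.992%) and 1 only at 6 h (0.221%, against 0.355%), with 3 of the 9 nearest to Chrm3, the M3 muscarinic receptor gene.

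None of the 26 circadian clock genes and none of the 38 immediate early genes had an unadjusted limma p under 0.05 in either direction, with medians of 0.01 each. Per1 and Per2, core clock repressors, had differences of 0.04 (SE 0.09) and 0.14 (SE 0.09), and Fos had 0.06 (SE 0.11). Over all genes 4.10% were longer and 2.32% shorter at 24 h at an unadjusted limma p under 0.05. The counts that follow stand against these shares. Among 47 hippocampal and excitatory neuron genes 4 were longer and 3 shorter at 24 h, and among 37 inhibitory neuron genes 4 and 1. Erbb4, an interneuron receptor kinase in the latter list, had 19340, 15563 and 18029 bp at 24 h and 15121, 15277 and 10380 bp at 6 h (0.31, SE 0.11), and without the 6 h library of replicate 4 the difference was 0.18. In cortex Erbb4 had the larger difference, 0.55 (SE 0.09, limma unadjusted p = 1e-04, adjusted p = 0.145). Of 34 endothelial and mural genes 1 was longer and 1 shorter. Of 28 oligodendrocyte lineage genes 2 were longer, of 49 synaptic genes 2, and of 30 striatal, choroid plexus and ependymal genes 4, with 0 shorter in these 3 lists. Folr1, a choroid plexus gene, had 1100, 1012 and 657 bp at 24 h and 207, 557 and 680 bp at 6 h, which overlap.

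The windows found at 1 time were then followed in libraries that had no part in choosing them. Of the 24 h windows, 52.4, 59.4 and 72.6% had a peak in the 12 h hippocampal libraries of replicates 1, 3 and 4, and 62.5 and 26.5% in the saline libraries. Of the 6 h windows, 31.8, 58.0 and 37.9% had one at 12 h and 59.3 and 48.7% with saline. Over all tested windows the same libraries had 75.6, 84.4 and 82.0% at 12 h and 84.0 and 76.2% with saline. A peak was missing from both saline libraries at 891 of the 24 h windows (30.3%) and 252 of the 6 h windows (23.9%), against 10.3% of tested windows. Windows missing from saline and present in all 3 libraries at 12 h and 24 h numbered 209 of the 2939 (7.11%). Among tested windows, whatever their state at 24 h, 1.44% were missing from saline and present in all 12 h libraries. The Kdr window of this kind (chr5:75927676-75928176), 4651 bp from this endothelial VEGF receptor gene, was listed as higher at both 12 h and 24 h in the authors' deposited table. At regions listed there as higher at 12 h lay 29 of the 2939 windows, and 1040 of all tested windows. At regions listed as lower at 12 h lay 3 of the 2939, and 1747 of all tested windows.

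**Figure D4:**
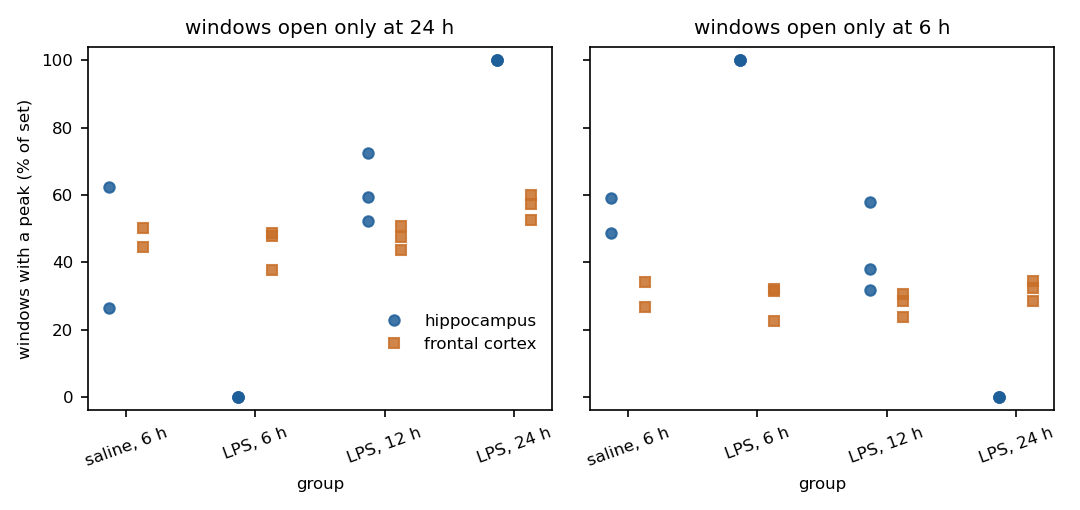
Share of the windows found only at 24 h (left) and only at 6 h (right) that had a peak in each library, by group. Circles are hippocampus and squares frontal cortex; hippocampal LPS 6 h and 24 h libraries are at 0 or 100% because they chose the windows, and the cortex libraries at 24 h lie above those at 6 h on the left.

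The 24 h windows were also followed in frontal cortex of the same animals. In the 24 h cortex libraries 56.7 ± 3.77% of them held a peak, and at 6 h 44.6 ± 6.11% (SD, n = 3 each; two-sided exact permutation p = 0.1, the smallest possible). All tested windows also had more peaks in cortex at 24 h, 66.1 ± 2.49% against 60.0 ± 4.43% (exact permutation p = 0.1). For the 6 h windows the cortex shares were 31.8 ± 3.06% at 24 h and 28.7 ± 5.22% at 6 h (exact permutation p = 0.5). The full pattern, 3 of 3 at 24 h and 0 of 3 at 6 h, recurred in cortex at 70 of the 2939 windows (2.38%), against 0.869% of all tested windows. It recurred near Siglech, Rasal3, Klhl6 and Fli1, an ETS factor of endothelial and blood cells, among others. The converse recurred at 5 of the 1053 6 h windows (0.475%, against 0.0807%), near Bach2, Arsg and Cbx6 among others. The genes in this pair of sentences were picked after their values were seen. The opposite cortex pattern, 3 of 3 at 24 h and 0 of 3 at 6 h, held at 9 of the 6 h windows (0.855%, against 0.869%). More cortex libraries had the peak at 24 h than at 6 h at 213 of the 6 h windows (20.2%, against 18.6% of tested windows). More had it at 6 h at 147 (14.0%, against 5.82%). Among the 24 h windows, 0 of 3 at 24 h and 3 of 3 at 6 h in cortex held at 4 (0.136%, against 0.0807%). More cortex libraries had the peak at 24 h at 880 of the 24 h windows (29.9%, against 18.6%). For 192 of them more had it at 6 h (6.53%, against 5.82%).

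The gene fit was also run in cortex, where 0 of 16841 genes passed (0%), while 1389 (8.25%) were longer and 362 (2.15%) shorter at 24 h at an unadjusted limma p under 0.05. Besides Siglech, the cortex difference was 0.67 (SE 0.14) for Cd14, 0.60 (SE 0.15) for Tmem119 and 0.53 (SE 0.11) for Tlr9, with limma adjusted p of 0.186, 0.241 and 0.186. For Tmem119 the cortex libraries held 1340, 1033 and 1560 bp at 24 h and 701, 584 and 806 bp at 6 h. For Cd14 they held 1393, 1596 and 1180 bp at 24 h and 761, 652 and 670 bp at 6 h. Neither gene overlapped between the times in either tissue. The cortex saline libraries held 939 and 515 bp at Tmem119 and 639 and 610 bp at Cd14. Those at 12 h held 580, 711 and 733 bp at Tmem119 and 1104, 664 and 874 bp at Cd14. Unlike at Siglech, the 6 h cortex values of these genes did not all lie below the saline and 12 h values. Ly96, Ticam1, Spi1 and P2ry13 had cortex differences between -0.08 and 0.06. The cortex and hippocampus of 1 animal are not separate animals, so both tissues rest on the same 3 mice at each time.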

How the data were processed

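OMNI-ATAC-seq libraries of 20 to 30 mg of frozen tissue were sequenced with paired 50 bp reads, per the labels' protocols. Per the submitters' processing notes, reads were handled with Bowtie2 2.4.4, Trim Galore 0.6.7 and FastQC 0.11.9, and MACS2 2.2.7.1 is named with the build GRCm38/mm10. A shift of reads for the transposase is not stated in these notes. The authors deposited peaks per library, and for each peak gave -log10 q, -log10 p (lowest 2.00), a score and the fold ratio over background. These values served ranking, filtering and description only, and no test compared them between libraries. Where windows of different libraries overlapped, the one with the higher score, scaled to the total of its library, was kept. The deposited tables of regions against saline were read for direction only.

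Windows and peak presence were computed as given in the text, and windows were assigned to the nearest protein-coding gene within 100 kb (21883 genes, GRCm38.p6, no strand). Genes with a mean open length of at least 500 bp were fitted with limma 3.58.1 (R 4.3.3, trend, Benjamini-Hochberg). Replicates are separate animals. Numbers shared across times did not pair them. The 16 gene lists (577 distinct genes, 3 symbols unmatched) and the comparison were chosen with earlier results of these data known, and the motifs after the windows were counted. Genes were named by rank: 8 per direction by window, 12 list genes per direction, the 5 lowest p per direction, and 2 to 4 or more per list, of which the text prints a part; a few genes are not reported here. Both steps were tested on simulated data first. Scripts ran in Python 3.11.15 with pandas 2.3.3, numpy 2.4.6, numba 0.67.0, matplotlib 3.10.9 and scipy 1.17.1.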

Additional observations from a re-analysis of the deposited data

How the results depend on the processing

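Stricter peaks (-log10 q of 5 or more) left 1601 windows found only at 24 h (0.864% of the windows then tested) and 0.271% only at 6 h, and the 50000 strongest peaks per library left 728 (1.07%) and 366 (0.540%). Equal numbers of peaks (228266 per library) gave 2383 and 1233. Leaving out 1 library gave between 4667 and 7299 windows at 24 h (1.63 to 2.57%) and between 1735 and 5309 at 6 h (0.609 to 1.85%), partly because 2 libraries are matched more easily than 3. Without replicate 1 of both times the counts were 7957 (3.07%) and 5394 (2.08%). No single window could be tested, so these counts carry no p. The difference in peak number turned from 8842 more intervals at 24 h to -1120 without the 24 h library of replicate 1 and to -2046 without the 6 h library of replicate 4 (highest 16077.7, without the 24 h library of replicate 4). That in the share of strong peaks turned from 0.43 to -0.58 and -1.49 percentage points (highest 1.85, without the 6 h library of replicate 3). The difference between cortex times at the 24 h windows ranged from 8.52 to 14.1 percentage points without 1 library. The gene fit called 0 genes under each of its 17 alternatives, with 768 to 1299 genes at an unadjusted limma p under 0.05 and a lowest adjusted p between 0.0514 (all 11 hippocampal libraries sharing 1 spread, for Siglech) and 0.911. Without centring, 1219 genes were longer and 80 shorter at 24 h at an unadjusted p under 0.05, against 692 and 392, and the median over genes was 0.08. The sign turned with stricter peaks for Acsbg1 (0.23), Cd109 (-0.041), Pou3f1 (0.078), Selplg (-0.049) and Tlr9 (-0.054), with 1 kb around gene ends for Ifit2 (-0.11), Satb1 (-0.084) and Vwc2l (-0.027), and with the 20 kb reach for Ticam1 (-0.019). The cause was not tested. Deviations of libraries with the same replicate number correlated at 0.0022, 0.033 and 0.022, so the numbers did not pair the libraries, and the fit with a replicate block also called 0 genes (lowest adjusted p 0.745), with 1093 at an unadjusted p under 0.05.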
